A study of Bos taurus with 111 samples.

Results

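NR4A1 (ENSBTAG00000000507), NR4A2 (ENSBTAG00000003650) and NR4A3 (ENSBTAG00000001864), the 3 genes of the NR4A family of orphan nuclear receptors, were followed in RNA sequencing of cattle muscle. They were taken by their Ensembl identifiers, and all 3 were among the 24616 genes counted in each library. Biopsies of M. longissimus thoracis et lumborum came from steers of a beef breed (Charolais, CH) and a dairy breed (Holstein-Friesian, HF), under the local anaesthetic Adrenacaine, when each of 3 feeding phases ended. The phases were a high concentrate diet while growing (H1), zero-grazed grass (ZG) and a high concentrate diet again while finishing (H2), and on average the CH steers were 283 and the HF steers 306 days old when the first began. Within each breed and phase the study chose steers of low (L-RFI, efficient) and high (H-RFI, inefficient) residual feed intake, the gap between the feed a steer ate and the feed predicted from its weight and gain. The 6 combinations of breed and phase are written CH-H1 to HF-H2 and called sets. All steers of a breed got the same diet in the same order, so diet, age and sampling date cannot be told apart in any difference between phases.

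NR4A proteins are transcription factors with no known ligand that they need in order to act. They bind DNA alone or as pairs, and some members also with the retinoid X receptor. Their genes belong to the immediate-early class, which is transcribed within minutes of a stimulus such as calcium entry, cyclic AMP or stretch, and whose mRNA decays fast. In skeletal muscle they are known to respond to β-adrenergic signals and exercise and to act on genes of glucose and fat use.

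Left out were 6 libraries with under 1000000 reads counted on genes and that of steer 571 (CH-ZG, H-RFI), in which 3 liver markers made up 124530 counts per 1000000 (CPM). The other 104 came from 77 steers, with 7 to 11 steers per breed, phase and RFI class. Of these steers, 52 had 1 library, 23 had libraries from 2 phases and 2 from all 3. Depth lay between 2201765 and 52552057 counts on genes and 3 counts corresponded to a median of 0.189 CPM. No marker of skeletal muscle in the marker lists had a name paired with its identifier (0 of 8). CSRP3, muscle LIM protein, chosen after its values were seen, had medians of 105 to 176 CPM per set. The liver markers (ALB, FGB and AHSG) summed to over 1000 CPM in 3 of the libraries left in, with 11530 CPM in the highest, and a fit without these 3 changed no call of an NR4A gene.

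NR4A1 was read in every library, and NR4A2 and NR4A3 varied over a far wider range. Over the 104 libraries NR4A1 had a lowest level of 41.6, a median of 164 and a highest level of 1080.0 CPM. NR4A2 had 0, 3.97 and 209 CPM, with 1 library at 0 counts. NR4A3 had 0, 1.30 and 43.5 CPM, with 5 libraries at 0 counts. The level at the 90th percentile was 5.26 times that at the 10th for NR4A1, 153 times for NR4A2 and 74.7 times for NR4A3. At the 10th percentile NR4A2 had 0.297 CPM and NR4A3 0.129 CPM, near the median of 0.189 CPM for 3 counts. The ratios of NR4A2 and NR4A3 thus include counting error, and all ratios pool the 3 phases. These levels are not divided by transcript length, so they do not rank the 3 genes against each other. Within a breed, phase and RFI class, the standard deviation between steers on the log2 scale was 0.80 for NR4A1, 2.03 for NR4A2 and 1.76 for NR4A3. Those of NR4A2 and NR4A3 also include counting error in the libraries with few counts.

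**Figure D1:**
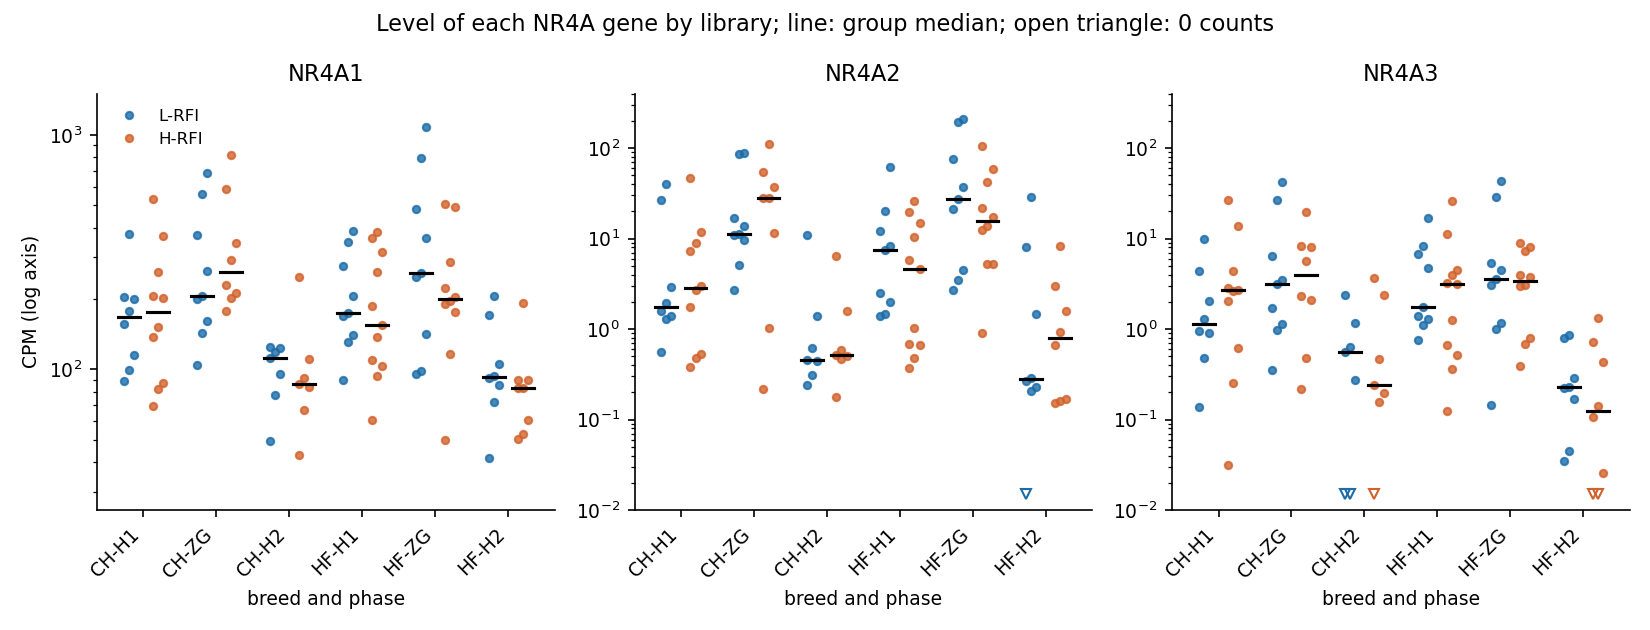
CPM of NR4A1, NR4A2 and NR4A3 (log axis, 1 panel per gene with its own range) in each library, by breed and phase, with L-RFI in blue and H-RFI in orange. Black lines are group medians and open triangles are libraries at 0 counts, and the H2 groups lie lowest in both breeds while every pair of phases overlaps.

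All 3 genes had their highest set medians in ZG and their lowest in H2, in both breeds. NR4A1, the family member with the most reads here, had a lowest, median and highest level of 69.9, 166 and 534 CPM in CH-H1 (n = 18), 104, 228 and 820.0 CPM in CH-ZG (n = 17), and 42.9, 93.1 and 246 CPM in CH-H2 (n = 14). In HF the same values were 60.7, 171 and 389 CPM in H1 (n = 20), 49.9, 221 and 1080.0 CPM in ZG (n = 19), and 41.6, 87.5 and 205 CPM in H2 (n = 16). The ranges of the phases overlapped in each breed. All 17 CH-ZG libraries lay above the CH-H2 median, 8 of them above the highest CH-H2 library, and in HF the counts were 18 and 10 of 19.

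NR4A1 rose from H1 to ZG in CH, by a log2 fold change of 1.09 (standard error, SE, 0.26, adjusted p = 0.0115, limma voom with the steer as a block). From ZG to H2 it fell in both breeds, with log2 fold changes of -1.71 in CH (SE 0.28, adjusted p = 3.85e-05) and -1.25 in HF (SE 0.26, adjusted p = 0.00113). From H1 to H2 it fell in HF, at -0.70 on the log2 scale (SE 0.26, adjusted p = 0.0418). This last call was lost without the 3 libraries in which over 15% of reads mapped to several places, where the log2 fold change was -0.57 (adjusted p = 0.0984). There the fold change fell below 1.5, while the adjusted p stayed under 0.1. The call was also lost with all libraries kept. The log2 fold change was 0.55 from H1 to ZG in HF (SE 0.25, adjusted p = 0.455) and -0.62 from H1 to H2 in CH (SE 0.27, adjusted p = 0.268), neither of which passed. A call means an adjusted p-value under 0.1 over the 10291 genes tested and a fold change above 1.5, the limits the study used.

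NR4A2 had the largest fitted differences of the 3 between ZG and each other phase. It had a lowest, median and highest level of 0.382, 2.31 and 46.6 CPM in CH-H1, 0.221, 13.9 and 112 CPM in CH-ZG, and 0.179, 0.510 and 11.1 CPM in CH-H2. In HF it had 0.371, 5.17 and 62.1 CPM in H1, 0.909, 21.1 and 209 CPM in ZG, and 0, 0.474 and 28.5 CPM in H2. The ZG median was thus 6.01 times the H1 median in CH and 4.08 times in HF, and the ranges still overlapped. In CH 15 of 17 ZG libraries lay above the H1 median, and in HF 15 of 19.

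NR4A2 rose from H1 to ZG in both breeds, with log2 fold changes of 2.61 in CH (SE 0.63, adjusted p = 0.0115, limma voom) and 2.04 in HF (SE 0.59, adjusted p = 0.0823). From ZG to H2 it fell in both, with log2 fold changes of -4.37 in CH (SE 0.82, adjusted p = 0.000654) and -4.31 in HF (SE 0.76, adjusted p = 0.000239). From H1 to H2 it fell in HF, at -2.27 on the log2 scale (SE 0.79, adjusted p = 0.0314), and in CH the value was -1.77 (SE 0.85, adjusted p = 0.330), which did not pass. The HF rise from H1 to ZG was lost without the filter on low counts (log2 fold change 2.06, adjusted p = 0.120) and on library totals with no scaling factor (1.85, adjusted p = 0.217).

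NR4A3 was the family member with the fewest reads. It had a lowest, median and highest level of 0.0319, 2.02 and 26.5 CPM in CH-H1, 0.221, 3.15 and 42.6 CPM in CH-ZG, and 0, 0.371 and 3.63 CPM in CH-H2. In HF it had 0.125, 2.43 and 25.7 CPM in H1, 0.146, 3.58 and 43.5 CPM in ZG, and 0, 0.196 and 1.34 CPM in H2. All 19 HF-ZG libraries but 1 lay above the HF-H2 median, and 13 of them above the highest HF-H2 library. H1 and ZG lay close together, with 8 of 20 HF-H1 libraries above the HF-ZG median.

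NR4A3 fell from ZG to H2 in both breeds, with log2 fold changes of -3.17 in CH (SE 0.75, adjusted p = 0.0139, limma voom) and -3.56 in HF (SE 0.72, adjusted p = 0.000753). From H1 to H2 it fell in HF, at -3.31 on the log2 scale (SE 0.72, adjusted p = 0.000714), and in CH the value was -1.75 (SE 0.77, adjusted p = 0.267), which did not pass. No rise from H1 to ZG passed, with log2 fold changes of 1.42 in CH (SE 0.63, adjusted p = 0.180) and 0.25 in HF (SE 0.58, adjusted p = 0.934).

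Set against all genes tested, 2 of the 3 genes were called higher in ZG than H1 in CH, where 1.02% of genes were, and 1 of 3 in HF, where 0.369% were. All 3 were called lower in H2 than ZG, beside 0.865% of genes in CH and 5.50% in HF. All 3 were called lower in H2 than H1 in HF, where 13.1% of genes were. None of the 3 was called lower in that comparison in CH, where 2.10% of genes were. With all libraries kept, 6 of the 12 calls were lost, as given under the processing alternatives. The median log2 fold change of all genes lay between -0.07 and -0.02 in these 6 comparisons, and that of the 3 NR4A genes was -3.17 in CH and -3.56 in HF from ZG to H2. Comparisons that have a phase in common share its libraries, so they are not independent of each other. The 3 genes were chosen with earlier results of these data known, so the shares are a background and not a test.

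NR4A2 and NR4A3 entered these fits through their H1 and ZG levels. In H2 they reached 1 CPM in 10 and 5 of 30 libraries, and 9 and 15 of the 30 held at most 3 counts. A gene that passes the filter only where it is high has to be lower elsewhere, which touches their comparisons with H2 and not those of NR4A1, which reached 1 CPM in all 104 libraries. With no filter on low counts both were still called in each comparison with H2 in which they are reported as lower above.

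**Figure D2:**
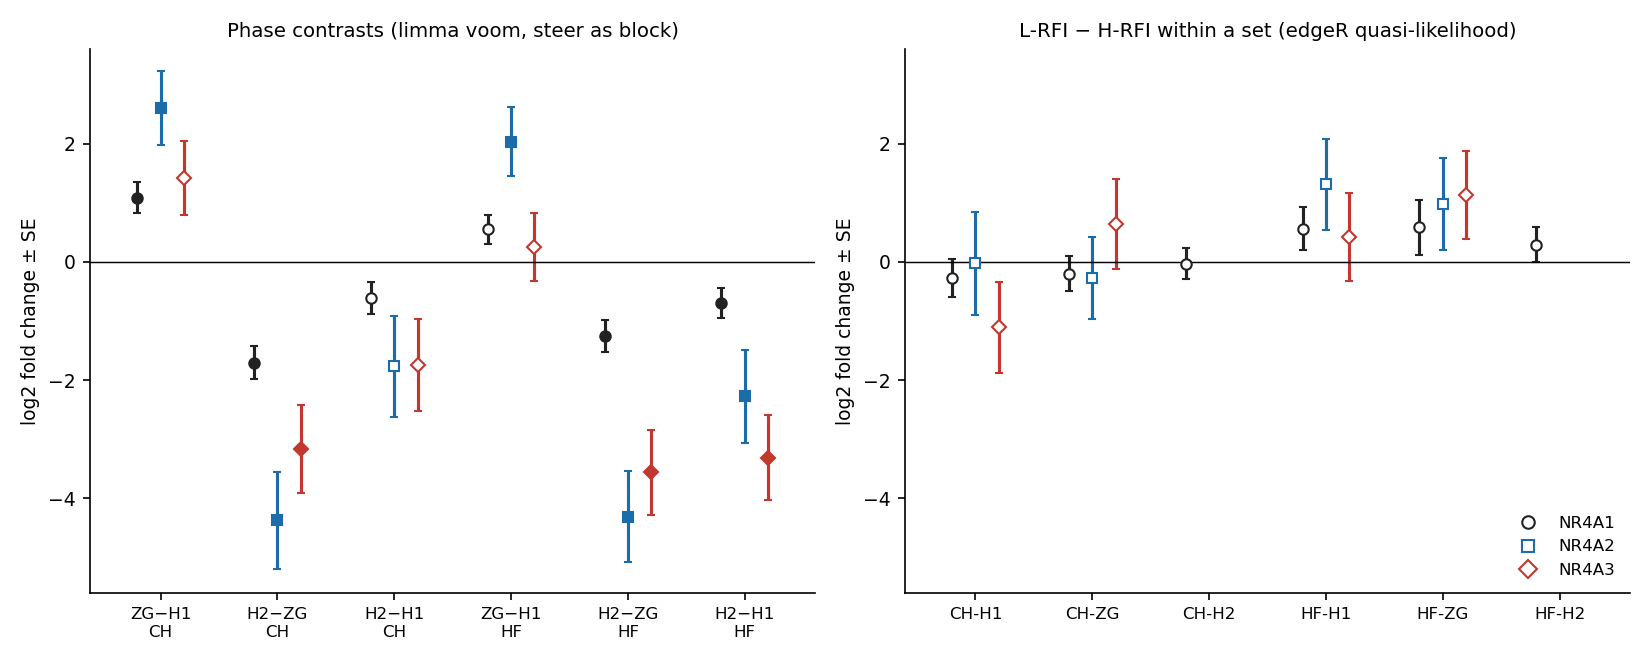
Log2 fold changes of the 3 genes with standard errors, for the 6 phase contrasts (left) and for L-RFI minus H-RFI in each set (right), with filled symbols for calls at adjusted p under 0.1 and fold change above 1.5. On the left the H2 minus ZG points lie between -4.37 and -1.25 and are all filled, and on the right no symbol is filled and NR4A2 and NR4A3 are missing where they were below the filter in H2.

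The size of the NR4A1 rise from H1 to ZG in CH depended on the scaling of the libraries. TMM factors, which correct the library total for its composition, reached 1.56, with medians of 1.10 in CH-H1 and 0.910 in CH-ZG. The ratio of the CH-ZG to the CH-H1 median in CPM was 1.37, beside a fitted fold change of 2.13. The first compares medians and the second mean log2 levels, so scaling is not the only difference between them. On library totals with no factor, the NR4A1 log2 fold change from H1 to ZG in CH was 0.75, beside 1.09 with TMM factors. It was still called (adjusted p = 0.0575, limma voom), while the median of all genes moved to -0.39.

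Ordered by median level, the sets ran CH-ZG, HF-ZG, HF-H1, CH-H1, CH-H2 and HF-H2 for NR4A1. For NR4A2 and NR4A3 the order was HF-ZG, CH-ZG, HF-H1, CH-H1, CH-H2 and HF-H2. By mean log2 level 3 pairs of neighbours stood the other way round, CH-H2 and HF-H2 for NR4A1 and for NR4A2 and HF-ZG and CH-ZG for NR4A3. No gap between neighbours in these orders was larger than the standard deviation within a set. The widest were 2.05 on the log2 scale for NR4A2 between CH-ZG and HF-H1 (larger standard deviation 2.11) and 1.70 for NR4A3 between CH-H1 and CH-H2 (larger standard deviation 1.85).

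Most steers with libraries from more than 1 phase moved in the direction of the fits, of which these libraries are a part. Directions within a steer were read from CPM on library totals, while the fits used TMM factors, so close pairs could differ between the scales. In the 7 steers sampled in both ZG and H2, the level in H2 was the lower one in 7 of 7 for NR4A2, 7 of 7 for NR4A3 and 6 of 7 for NR4A1. Of these steers 5 were CH and only 2 HF. In CH steer 310, NR4A1 went from 686 CPM in ZG to 49.1 CPM in H2, NR4A2 from 87.7 to 0.440 CPM and NR4A3 from 26.5 to 0.275 CPM. In HF steer 5612 the corresponding pairs were 793 and 205 CPM, 195 and 28.5 CPM, and 28.7 and 0.803 CPM. CH steer 1492 was the exception for NR4A1, with 104 CPM in ZG and 118 CPM in H2.

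Of the 11 steers sampled in both H1 and ZG, 7 had the higher NR4A1 level in ZG, 9 the higher NR4A2 level and 8 the higher NR4A3 level. For NR4A1 these were 3 of 5 CH steers, the breed in which the rise was called, and 4 of 6 HF steers. Of the 11 sampled in both H1 and H2, 9 had the lower level in H2 for each of the 3 genes. These were 5 of 5 HF steers and 4 of 6 CH steers. Steer 1100, 1 of the 2 CH steers sampled in every phase, had 98.9, 262 and 66.9 CPM of NR4A1 and 1.29, 11.2 and 0.498 CPM of NR4A2 in H1, ZG and H2. Steer 307, the other, had 259, 228 and 124 CPM of NR4A1 and 2.67, 11.4 and 0.314 CPM of NR4A2.

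**Figure D3:**
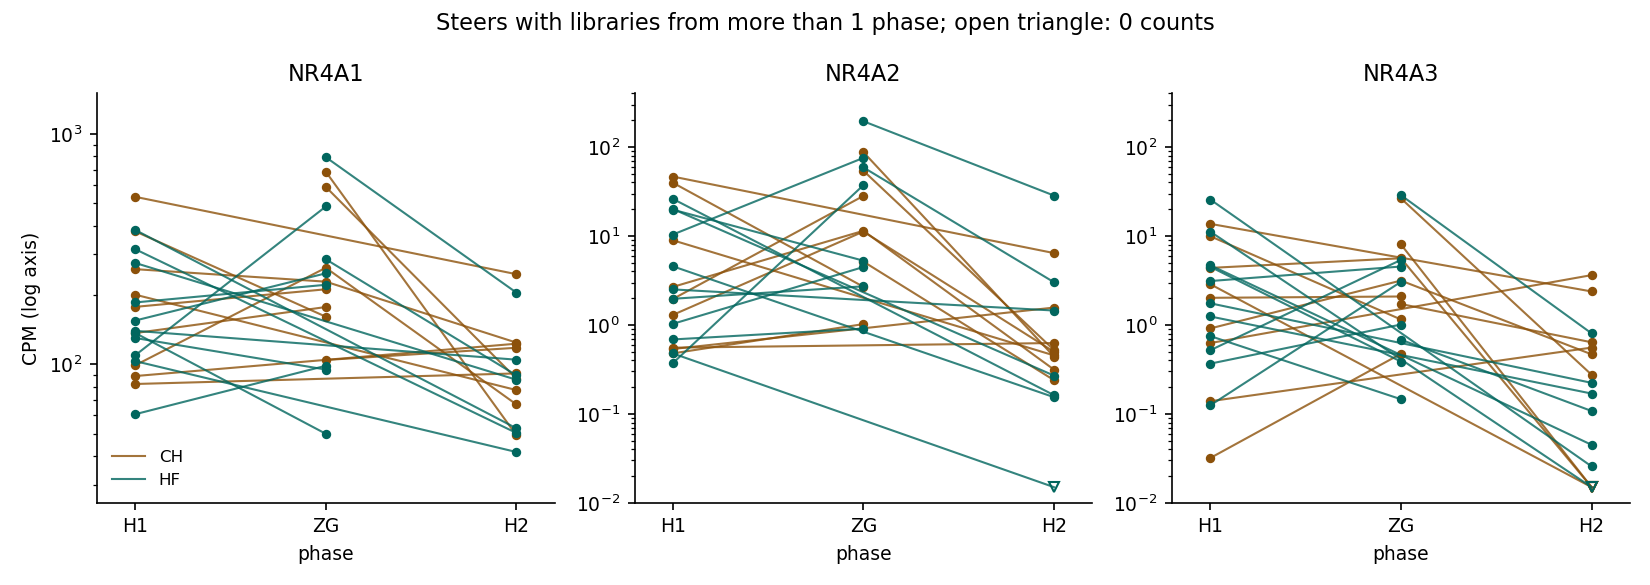
CPM of each gene (log axis) in the steers with libraries from more than 1 phase, joined by a line per steer, with CH in brown, HF in green and open triangles at 0 counts. From ZG to H2 the NR4A2 and NR4A3 lines go down in 7 of 7 steers and the NR4A1 line in 6 of 7.

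Whether a steer that stood high in its group in one phase also stood high in another was examined in the 25 steers with 2 or more libraries, as deviations from group means in the first and the last. Pearson's r was 0.42 for NR4A1 (permutation p = 0.0366, adjusted p = 0.0658 over the 3 genes) and Spearman's rho was 0.36 (p = 0.0811, adjusted p = 0.232). For NR4A2 r was 0.40 (permutation p = 0.0438, adjusted p = 0.0658) and rho was 0.29 (p = 0.155, adjusted p = 0.232). For NR4A3 r was 0.04 (permutation p = 0.839) and rho was -0.03 (p = 0.888). Without the 2 steers farthest from the median in the first library, r was 0.29, 0.40 and -0.06, so the value for NR4A1 rested in part on those steers. None of the 3 relations passed at an adjusted p-value under 0.05.

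The breeds were not told apart by any of the 3 genes. For NR4A1, HF minus CH had a log2 fold change of 0.10 in H1 (SE 0.26), -0.44 in ZG (SE 0.26, adjusted p = 0.422, limma voom) and 0.01 in H2 (SE 0.28). For NR4A2 it was 0.49, -0.08 and -0.02, with SEs of 0.66, 0.57 and 0.98. For NR4A3 it was 0.52, -0.65 and -1.04, with SEs of 0.64, 0.59 and 0.86. In these comparisons 0.262%, 1.41% and 0.204% of genes were called. The largest NR4A1 difference, in ZG, had a 95% interval of -0.96 to 0.08. It was called only when libraries were weighted by quality, at -0.59 on the log2 scale (adjusted p = 0.0651), a setting that called 814 genes there. The difference between the breeds in the phase effect, tested as the interaction of breed and phase, had unadjusted p-values of 0.296 for NR4A1, 0.794 for NR4A2 and 0.254 for NR4A3 (adjusted p = 0.973 to 0.979, limma voom), and no gene was called (0 of 10291, with 462 at an unadjusted p under 0.05). The study, by contrast, reported NR4A3 as affected by diet and breed in its own interaction analysis.

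In these fits feed efficiency did not separate the 3 genes within any set. In HF-H1, NR4A2 had a lowest, median and highest level of 1.40, 7.42 and 62.1 CPM in L-RFI (n = 9) and 0.371, 4.57 and 26.2 CPM in H-RFI steers (n = 11). The ranges overlapped, with both the lowest and the highest level of L-RFI above those of H-RFI steers, and the log2 fold change of L-RFI against H-RFI was 1.31 (SE 0.77, unadjusted p = 0.102, edgeR quasi-likelihood test, adjusted p = 1.00). In HF-ZG, NR4A1 had 94.8, 258 and 1080.0 CPM in L-RFI (n = 9) and 49.9, 199 and 508 CPM in H-RFI steers (n = 10), with a log2 fold change of 0.59 (SE 0.47, adjusted p = 0.448). NR4A3 in HF-ZG had 0.146, 3.58 and 43.5 CPM in L-RFI and 0.387, 3.40 and 8.91 CPM in H-RFI steers, with a log2 fold change of 1.13 (SE 0.74, adjusted p = 0.395). Its highest levels were in L-RFI steers, but the medians lay side by side.

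In CH the RFI differences of NR4A1 were -0.27 in H1, -0.20 in ZG and -0.03 in H2 on the log2 scale, with SEs of 0.33, 0.30 and 0.27. NR4A3 in CH-H1 had 0.139, 1.13 and 9.95 CPM in L-RFI (n = 8) and 0.0319, 2.68 and 26.5 CPM in H-RFI steers (n = 10), with a log2 fold change of -1.10 (SE 0.77, adjusted p = 0.999). The study did report NR4A3 as down-regulated in L-RFI steers of this set, with edgeR's exact test and 12 steers selected per class. No CH-H1 library was left out here, and in these 8 L-RFI and 10 H-RFI libraries that test did not call NR4A3. The direction of the fitted difference was that of the study, with a fold change of 2.15. Across the sets in which a gene passed the filter, NR4A1 was higher in L-RFI in 3 of 6, NR4A2 in 2 of 4 and NR4A3 in 3 of 4. None of these 14 differences passed, with unadjusted p-values from 0.102 to 0.980. The quasi-likelihood test called 0% of genes in every set (0 of 9823 to 10812), with 72 to 1228 genes per set at an unadjusted p under 0.05, while edgeR's exact test and DESeq2's Wald test each called 0 to 2. None of the 102 RFI differences fitted for an NR4A gene here, over all sets and settings, was called.

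An RFI effect common to the 6 sets had a log2 fold change of 0.24 for NR4A1 (95% interval -0.07 to 0.54), 0.44 for NR4A2 (-0.43 to 1.30) and 0.33 for NR4A3 (-0.47 to 1.14), with adjusted p-values of 0.592 to 0.688 (limma voom). No gene was called there (0%, with 666 at an unadjusted p under 0.05, and 50 called with sample quality weights). The intervals leave room for a common difference of up to 1.30 on the log2 scale in NR4A2. The test for unequal RFI effects between the sets had unadjusted p-values of 0.483, 0.862 and 0.765 for NR4A1, NR4A2 and NR4A3, and it called 0% of genes, with 106 at an unadjusted p under 0.05.

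Within a set, the steers high in one NR4A gene were mostly high in the others. Pearson's r of the log2 levels, after the RFI class means were removed, was computed for 3 pairs of genes in 6 sets, and 15 of the 18 relations passed at an adjusted p-value under 0.05 (permutation within RFI class, 100000 permutations). In H1 and ZG all 12 passed, with r from 0.54 to 0.86, Spearman's rho from 0.51 to 0.84 and r from 0.48 to 0.87 without the 2 steers farthest in the first gene. NR4A2 and NR4A3 in CH-H1 had r = 0.84 and rho = 0.81 (permutation p = 1e-05 for r, the smallest the permutations can give, adjusted p = 0.00018). NR4A1 and NR4A2 in HF-ZG had r = 0.86 and rho = 0.84 (permutation p = 3e-05, adjusted p = 0.00018).

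With TMM factors the relations in H2 were looser, at the low counts given above. NR4A1 and NR4A2 had r = 0.36 in CH-H2 (permutation p = 0.196, adjusted p = 0.220) and r = 0.59 in HF-H2 (permutation p = 0.0145, adjusted p = 0.0218). NR4A1 and NR4A3 had r = -0.14 in CH-H2 (permutation p = 0.653) and r = 0.20 in HF-H2 (permutation p = 0.495), and neither passed. NR4A2 and NR4A3 had r = 0.61 in CH-H2 (permutation p = 0.0234, adjusted p = 0.0281), which fell to 0.36 without the 2 farthest steers and so rested on them. By Spearman's rho 1 of the 6 relations in H2 passed, NR4A2 with NR4A3 in HF-H2 (rho = 0.66, permutation p = 0.00737, adjusted p = 0.0121). The 2 genes of a relation are read in the same libraries and share their depth and scaling factor. On library totals with no factor r ranged from 0.36 to 0.89 and 16 of the 18 passed. The r of 0.89 was itself from H2, for NR4A1 and NR4A2 in HF-H2 (rho = 0.86). On those totals 4 of the 6 relations in H2 passed, beside 12 of 12 in H1 and ZG. Those that did not pass were in CH-H2, NR4A1 with NR4A2 (r = 0.56, permutation within class, adjusted p = 0.052) and NR4A1 with NR4A3 (r = 0.36, adjusted p = 0.239). The relations in HF-H2 thus changed with the scaling, while part of those in CH-H2 stayed loose. The cause was not tested.

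**Figure D4:**
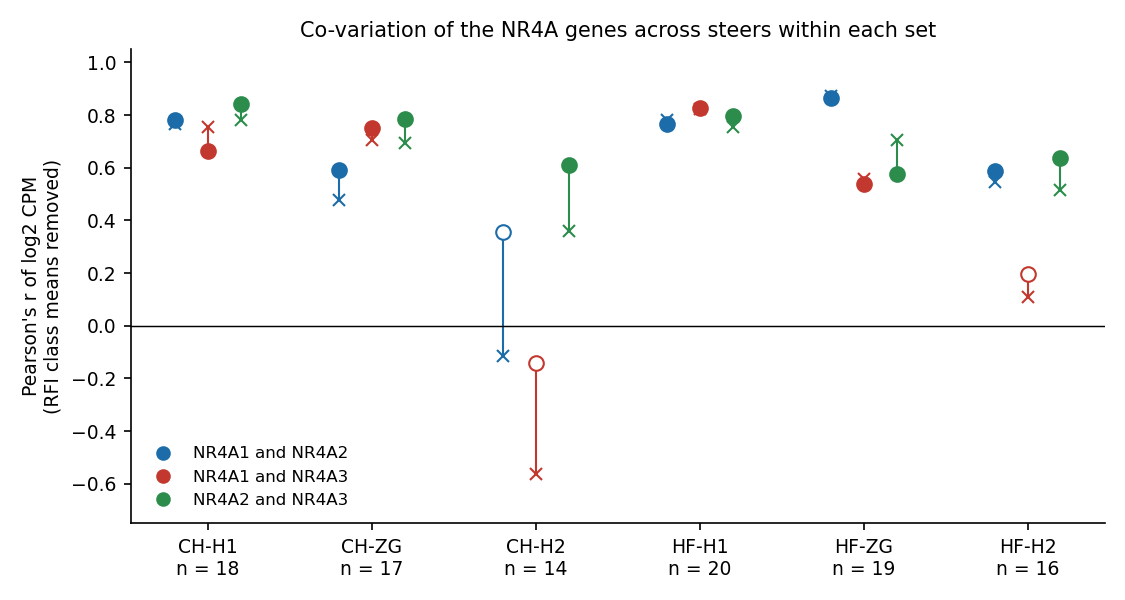
Pearson's r between the log2 CPM of each pair of NR4A genes across the steers of a set, with RFI class means removed (circles, filled where the adjusted permutation p is under 0.05), and r without the 2 steers farthest from the median of the first gene (crosses). The 12 circles in H1 and ZG lie between 0.54 and 0.86 and are filled, and 3 of the 6 in H2 are open.

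The 4 libraries with the most NR4A1 also had high levels of the other two genes, which did not hold for every high library. These 4 were all from ZG, namely HF steers 2094 (1080.0 CPM) and 5612 (793 CPM) and CH steers 1879 (820.0 CPM) and 310 (686 CPM). NR4A2 in these stood at 209, 195, 112 and 87.7 CPM, and NR4A3 at 43.5, 28.7, 19.9 and 26.5 CPM. Of these 4 steers, 3 were L-RFI and 1879 was H-RFI. By contrast, HF steer 1782 in ZG had NR4A2 at 106.6 CPM and NR4A3 at 3.99 CPM. HF steer 2071 in H1 had NR4A3 at 25.7 CPM and NR4A2 at 4.57 CPM.

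Among the 10290 other genes tested, each NR4A gene was close to its family, by Pearson's r of the deviations from group means over the 104 libraries. NR4A2 ranked 8th for NR4A1 (r = 0.71) and 2nd for NR4A3 (r = 0.71). For NR4A2 itself, NR4A3 ranked 6th and NR4A1 7th. NR4A1 and NR4A3 were farther from each other (r = 0.56, rank 26 for NR4A1 and 25 for NR4A3). The 99th percentile of r over genes was 0.35 for NR4A1, 0.42 for NR4A2 and 0.45 for NR4A3, and 34, 48 and 52 genes had an r over 0.5.

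The named gene most like NR4A1 and NR4A2 was BTG2, an immediate-early gene that restrains cell division, at r = 0.82 and 0.83 and rank 1 in both cases. For NR4A3, NR4A2 came before BTG2 (r = 0.71, rank 3). After BTG2, NR4A1 was most like CSRNP1, a nuclear factor of the immediate-early class (r = 0.79), MIDN, a nuclear protein that takes short-lived proteins to the proteasome (r = 0.75), and FOSB, an AP-1 subunit (r = 0.71). NR4A2 was most like FOS, another AP-1 subunit (r = 0.73), and COQ10B, a coenzyme Q binding protein of mitochondria (r = 0.70), beside its family. NR4A3 was also like COQ10B (r = 0.67) and FOSL2, an AP-1 subunit (r = 0.61). Only 159 genes have a name here, all from the study's lists of genes that differed in these same samples, and these r values carry no test.

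Other genes of the immediate-early class were called in the same direction as the NR4A genes from ZG to H2. Of 31 genes listed as AP-1 subunits, EGR and KLF factors or feedback regulators, 11 could be paired with an identifier, and the study chose them on these samples, so their direction is not independent evidence. From ZG to H2, 9 of the 11 were called lower in CH and 8 in HF, beside 0.865% and 5.50% of all genes, with medians of -1.79 and -1.35 on the log2 scale beside -0.02 and -0.04 for all genes. From H1 to ZG, 5 were called higher in CH and 2 in HF, beside 1.02% and 0.369% of all genes, with medians of 0.69 and 0.74. From H1 to H2, 1 was called lower in CH, beside 2.10% of all genes. In HF 4 were called lower and 1 higher, beside 13.1% and 2.33% of all genes.

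The 5 AP-1 genes, whose products pair to bind DNA in response to stimuli, were all called lower in H2 than ZG in both breeds. In CH the values on the log2 scale were -4.46 for FOSB (adjusted p = 0.00283, limma voom), -4.10 for FOS (adjusted p = 6.34e-05), -1.79 for JUN (adjusted p = 5.62e-06) and -1.28 for FOSL2 (adjusted p = 0.00183). From H1 to ZG in CH, FOSB rose by 2.88, FOS by 2.26 and JUN by 0.91 (adjusted p = 0.0131, 0.0199 and 0.0225). From H1 to ZG in HF, JUNB was the AP-1 gene called (log2 fold change 1.60, adjusted p = 0.0149). EGR1, a zinc finger factor of the same class, was called from ZG to H2 in CH (log2 fold change -1.88, adjusted p = 0.0361) and not in HF (-0.17, adjusted p = 0.836). Its interaction of breed and phase did not pass (unadjusted p = 0.0205, adjusted p = 0.973).

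Of the 5 feedback regulators, BTG2, CSRNP1 and ZFP36, the last a protein that speeds mRNA decay, were called lower in H2 than ZG in both breeds. BTG2 had log2 fold changes of -2.91 in CH and -2.43 in HF (adjusted p = 0.000356 and 0.000630, limma voom). NFKBIA, the inhibitor of NF-κB, rose from H1 to H2 in HF (log2 fold change 0.65, adjusted p = 0.00607), while the NR4A genes fell there. CISH, an inhibitor of cytokine signalling, was not called in any phase comparison.

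PDK4, which holds back glucose oxidation and was the measured gene of 9 listed as lipid or mitochondrial genes linked to NR4A in muscle, was called lower in H2 than ZG in both breeds, at -2.80 in CH and -2.92 in HF on the log2 scale (adjusted p = 0.00368 and 0.000439, limma voom). FOXO1, a transcription factor of fasting, was the measured gene of 9 listed as responsive to cyclic AMP and calcium. It was called lower in H2 than H1 in HF (log2 fold change -1.23, adjusted p = 0.00152, limma voom), where 13.1% of all genes were. In CH the value was -0.02 (adjusted p = 0.984). In H1, FOXO1 was also called higher in HF than CH (log2 fold change 1.18, adjusted p = 0.0360). DDIT4, a stress-induced brake on growth signals, was called lower in H2 than ZG in both breeds (log2 fold changes -1.80 and -1.70, adjusted p = 6.34e-05 and 0.000148). GADD45A, a gene of DNA damage and atrophy, was not called in any phase comparison. The lists of NR4A partners such as RXR and MEF2 (0 of 9) and of glucose and glycogen genes (0 of 8) had no member with a name paired with an identifier.

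Markers of other cells moved in part with phase. The 2 measured adipocyte markers (FABP4 and CIDEC, of 5 listed) summed to medians of 7.49 CPM in HF-H1, 20.4 CPM in HF-ZG and 24.4 CPM in HF-H2, and both were called higher in HF-H2 than in HF-ZG and HF-H1, beside 0.807% and 2.33% of all genes. In CH their medians were 3.07, 2.23 and 7.71 CPM in the same order, with no call. The 3 measured leukocyte markers (PTPRC, CD3E and LYZ, of 6 listed) had set medians of 1.97 to 8.74 CPM, and the 3 liver markers (of 4 listed) 62.7 to 143 CPM, with no call between phases. Markers of blood (0 of 5), endothelium (0 of 4) and fibroblasts (0 of 4) had none measured under a name. The median share of reads on no gene was 13.2% in H1, 11.7% in ZG and 10.4% in H2. The part of these in the NR4A differences was not tested, and in whole biopsies a change in the number of cells of a type and in RNA per cell cannot be told apart.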

How the data were processed

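Muscle RNA was sequenced as single-end reads after stranded mRNA library preparation. Per the labels and the study's methods, the authors checked reads with FastQC 0.11.5, trimmed them with cutadapt, and aligned and counted them with STAR 2.5.1. The labels name the genome UMD3.1 and the methods ARS-UCD1.2, so no coordinates are given. The deposited values are raw counts per Ensembl gene, neither normalized nor filtered by the authors. The reverse-strand column was used, which held 97.6% to 99.5% of the stranded gene counts in the libraries left in. Libraries with identical counts numbered 0. Gene names (159) come from a supplementary table of the study. The NR4A genes and the gene lists were chosen with earlier results of these data known. The libraries of a group came from different steers, and p-values measure the spread between them.

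A gene entered a fit when 50% or more of its libraries reached 1 CPM, and TMM factors were computed. RFI classes were compared within each set with edgeR's quasi-likelihood test, in which each steer occurs once. Breed, phase, their interaction and a common RFI effect were fitted with limma voom over 12 group means, with the steer, identified by its number in the labels, as replicate block (consensus correlation 0.0966). The study's own test was edgeR's exact test, which was an alternative here. P-values were adjusted by Benjamini-Hochberg over all genes of a fit, and calls needed an adjusted p under 0.1 and a fold change above 1.5. CPM values in the text are counts per 1000000 of the library's counts on genes; fitted fold changes use TMM factors. Log2 levels for correlations used TMM and a prior count of 2, and 95% intervals are 1.96 standard errors on each side. These intervals include the spread between steers, while the floor of 3 counts covers counting error only, as PCR copies were not marked by molecular identifiers. The 3 NR4A genes were always named; from each list up to 4 genes with the smallest p-values could be named, and for each NR4A gene the 5 named genes with the highest r. The fits and the permutation test were tested on simulated data. Models were run with edgeR 4.0.16, DESeq2 1.42.0 and limma 3.58.1 in R 4.3.3, and permutations and figures with scipy 1.17.1, numpy 2.4.6 and matplotlib 3.10.9 in Python 3.11.15.

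The alternatives were other tests (edgeR's exact test, DESeq2, edgeR's quasi-likelihood test on all libraries, no block, sample quality weights), RLE factors, no filter, unstranded counts and all libraries kept. Added after seeing the data were fits without the 3 libraries with over 15% of reads mapping to several places, without the 3 with over 1000 CPM of liver markers, and on library totals with no scaling factor.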

Additional observations from a re-analysis of the deposited data

Results flagged for a closer look

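Dixon's criterion was applied to 33 pairings of a gene with a breed, phase and RFI class of up to 10 steers. In 13 of them a steer lay far above the rest in CPM. Chance alone flags about 1 in 20 where values are normally distributed. That rate is no fair measure here, as CPM was mostly skewed upward and the pairings share libraries. On the log2 scale 0 of the 33 were flagged, and the 13 came from 8 steers. Steer 1320 was flagged in 2 phases, with NR4A2 at 46.6 CPM in CH-H1 H-RFI (next 11.9), and NR4A1 at 246 CPM and NR4A2 at 6.42 CPM (next 1.57) in CH-H2 H-RFI. Several steers were flagged for more than 1 gene of the family. Steer 1831 in CH-H1 L-RFI had NR4A1 at 378 CPM and NR4A3 at 9.95 CPM, steer 2068 in HF-H1 L-RFI had NR4A2 at 62.1 CPM and NR4A3 at 16.9 CPM, and steer 1661 in HF-H2 H-RFI had NR4A1 at 192 CPM and NR4A2 at 8.24 CPM. The others were NR4A3 at 26.5 CPM in steer 581 (CH-H1 H-RFI) and at 19.9 CPM in steer 1879 (CH-ZG H-RFI), and NR4A2 at 11.1 CPM in steer 1316 (CH-H2 L-RFI) and at 28.5 CPM in steer 5612 (HF-H2 L-RFI).

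The libraries left out also held NR4A reads above 3 counts. The library of steer 571 (CH-ZG H-RFI) had 18 counts of NR4A1 and 7 of NR4A3 among 13818659, or 1.30 and 0.507 CPM, while the lowest NR4A1 level of any library left in was 41.6 CPM. In the shallow libraries NR4A1 had 20 counts in steer 2251 (HF-H1 L-RFI, 195 CPM), 64 in steer 871 (CH-H2 H-RFI, 108 CPM) and 25 in steer 954 (CH-H2 L-RFI, 171 CPM).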

How the results depend on the processing

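All 180 alternative values of the 18 phase differences kept their direction, and 170 kept their side of the thresholds. With all libraries kept, steer 571 included, calls were lost for NR4A1 (H1 to ZG in CH 0.63, ZG to H2 in CH -1.18, H1 to H2 in HF -0.68), NR4A2 (H1 to ZG in HF 2.01, H1 to H2 in HF -2.03) and NR4A3 (ZG to H2 in CH -2.79) on the log2 scale. NR4A2 from H1 to ZG in HF was also lost with no filter (2.06) and on library totals (1.85), and NR4A1 from H1 to H2 in HF without the 3 libraries with many multimapping reads (-0.57). Sample quality weights added NR4A3 from H1 to ZG in CH (1.23) and NR4A1 in HF minus CH in ZG (-0.59). The fit without the replicate block, in which NR4A2 from ZG to H2 in HF had a log2 fold change of -4.27, changed no call of an NR4A gene. No RFI difference was called under any alternative. Among correlations, NR4A1 with NR4A3 in HF-H2 passed on library totals (r = 0.60), and NR4A2 with NR4A3 in CH-H2 did not with all libraries kept (r = 0.14). The causes of these changes were not tested.

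The number of genes called depended strongly on the setting. From H1 to ZG it was 247 in CH (40 to 2040 over the settings) and 57 in HF (8 to 94), from ZG to H2 103 in CH (34 to 177) and 649 in HF (227 to 1521), and from H1 to H2 252 in CH (37 to 488) and 1588 in HF (846 to 3959). Between breeds it was 27 in H1 (6 to 128), 145 in ZG (4 to 814) and 21 in H2 (1 to 31). The interaction of breed and phase gave 0 (up to 887 with quality weights, an NR4A gene not among them). On library totals the share of calls that were higher fell from 42.5% to 1.27% (CH, H1 to ZG), 66.7% to 35.5% (HF, H1 to ZG), 14.3% to 2.87% (CH, H1 to H2), 12.8% to 1.25% (HF, ZG to H2) and 15.1% to 0.834% (HF, H1 to H2), it rose from 13.6% to 20.6% (CH, ZG to H2), and between breeds it rose from 77.8% to 88.2% in H1, 74.5% to 98.3% in ZG and 81.0% to 100% in H2. Depth limited NR4A2 and NR4A3 in H2, where 9 and 15 of 30 libraries held at most 3 counts, and in CH-H2 and HF-H2 both were below the filter, so their RFI difference there was fitted only with no filter, where it was not called.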
